A study of Mus musculus with 4 samples.

Results

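The genes described here sense, take up and export sterols: Srebf1 and Insig1, which belong to the sterol sensor of the endoplasmic reticulum, Scarb1, a lipoprotein receptor, and Abca1, Abcg1 and Apoe, which serve cholesterol efflux. They were chosen by symbol, taking every probe set whose platform annotation gives exactly 1 gene symbol. This gave 8 probe sets for the 6 genes, of 12488 probe sets on the array. Expression was measured in mouse embryonic fibroblasts of a mixed FVB;129Sv background that all carry the Men1 knockout. On 2 arrays (Men1 MEFs) the knockout cells had been given Men1 back, and on 2 arrays (Men1-/- MEFs) they had been given vector, so both groups share the knockout and no array held cells that had never lost Men1. The labels do not give the construct, the number of cell clones or the age of the embryos, and nothing in them says that the replicates came from separate cultures. The p-values below therefore cover only variation between these hybridisations, and that variation may be technical. The culture medium held 10% serum, and cells were collected 24 h after plating at 70% density. The study was made to find genes that menin, the nuclear scaffold protein encoded by Men1, controls.

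Cells keep their cholesterol steady with opposing systems. When sterol in the endoplasmic reticulum is low, SREBP transcription factors, which Insig proteins otherwise hold back in that membrane, are cut free and raise the genes of sterol synthesis and uptake. When sterol is high, oxysterols activate the LXR nuclear receptors, which raise Abca1, Abcg1, Apoe and Srebf1 and so favour export and fatty acid synthesis. Serum in the medium supplies lipoprotein cholesterol to cultured fibroblasts.

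The well-detected members were nearly equal in both groups. Srebf1 and Scarb1 had signals between 476.2 and 559.7 on all 4 arrays, with overlapping groups. Abcg1 had a lower mean with Men1 (37 ± 30) than with vector (84.6 ± 34.9; SD, n = 2 each), but the arrays of a group differed about as much as the groups did. Abca1 lay near the level of the control probe sets, and Insig1 and Apoe lay below it on all arrays. By limma, 0 of the 8 probe sets passed the threshold, an adjusted p of 0.05 over all 12422 probe sets tested, and 0 of those 12422 (0%) passed. At an unadjusted limma p under 0.05 there were 0 of the 8 members, against 1.88% of all probe sets tested. Of the 8 members, 1 (Abcg1) had groups that did not overlap, against 22.1% of all probe sets. With 2 arrays per group, no exact two-sided permutation test can give a p below 0.333.

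The signals are set beside 19 control probe sets against bacterial and yeast transcripts for which no RNA appears to have been spiked in. The highest of the 19 reached 25.9 on Men1-complemented array 1, 27.4 on Men1-complemented array 2, 15.9 on vector array 1 and 20 on vector array 2. A probe set that did not exceed the highest control of its own array is called at control level there. The floor was thus lower on the vector arrays, which bears on the dim members below. Men1 itself has 1 probe set, whose signals of 18.8 and 22.5 with Men1 (both at control level) overlapped the 18.1 and 29.5 with vector. It is not stated whether its target lies inside the knocked-out part or the reintroduced copy, so these signals do not check the labels. The ratio of the 3′ to the 5′ Gapdh control lay between 0.743 and 0.85. The label protocol names random as well as poly(T) priming, so this ratio is not read as a measure of RNA integrity. Of 16 measured fibroblast markers 11 exceeded the controls on all 4 arrays, while Thy1, a surface marker of many fibroblasts, was at control level on all of them.

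**Figure D1:**
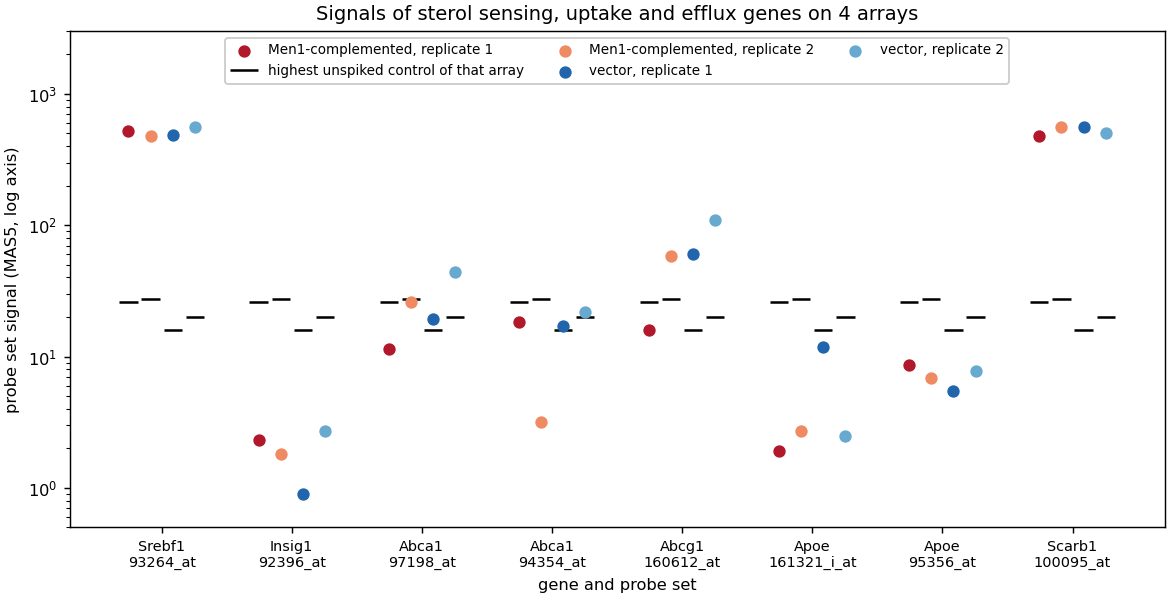
MAS5 signal (log axis) of each member probe set on the 4 arrays, with a black bar at the highest unspiked control of the same array. Srebf1 and Scarb1 lie far above the controls on all arrays, Insig1 and both Apoe probe sets lie below them, and the Abca1 probe sets lie near them.

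Among the sensors, Srebf1 encodes a pair of SREBP isoforms from alternative starts. Its probe set (93264_at) read 523.7 and 481.2 in Men1-complemented cells, against 489.9 and 559.7 in vector cells. The vector values enclose both Men1 values, and no array stood apart. The log2 difference, taken on log2(signal + 16) as Men1 minus vector throughout, was -0.06 with a standard error (SE) of 0.18 (limma adjusted p = 1). Its 95% interval ran from -0.53 to 0.41, that is from 0.692-fold to 1.33-fold, so larger changes of this signal lie outside the interval. Which of the isoforms this probe set reads was not examined.

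Insig1, the membrane protein that retains the SREBPs and is itself an SREBP target, read 2.3 and 1.8 with Men1, against 0.9 and 2.7 with vector (92396_at). All 4 signals were at control level, so no fold is given. Whether the transcript was low or this probe set measured it poorly cannot be told apart here.

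Scarb1 encodes the high-density lipoprotein receptor SR-BI, which takes up cholesteryl ester and also lets free cholesterol pass out. It read 476.2 and 557.3 with Men1, against 555.4 and 507.6 with vector (100095_at). The groups overlapped, with the Men1 arrays at the lowest and the highest of the 4 values. The log2 difference was -0.04 (SE 0.19, limma adjusted p = 1), and its 95% interval ran from -0.53 to 0.44, or 0.695-fold to 1.36-fold.

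Of the efflux genes, Abcg1, a half-transporter that moves cholesterol toward high-density lipoprotein, showed the largest difference among the members (160612_at). It read 15.8 and 58.2 with Men1, against 59.9 and 109.2 with vector. Both Men1 values were below both vector values, but Men1 replicate 2 (58.2) and vector replicate 1 (59.9) were almost the same. Men1 replicate 1 was at control level and the other 3 arrays were above it. The log2 difference was -1.0 (SE 0.48, limma adjusted p = 1, with an unadjusted value of 0.0944), and the 95% interval from -2.26 to 0.25 includes 0. The Men1 arrays differed from each other by 1.22 and the vector arrays by 0.72 on the same scale. In both groups replicate 2 read higher than replicate 1, and the labels do not say what these numbers mark. Without Men1 replicate 1 the difference was -0.39 and without vector replicate 2 it was -0.64. Without Men1 replicate 2 it was -1.62 and without vector replicate 1 it was -1.37, so its size rested on single arrays. Since the groups did not overlap, leaving out an array could not turn its sign.

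The array with the highest Abcg1 signal, vector replicate 2, also had the highest median signal of all probe sets, 62.4 against 50 to 55.65 on the other arrays. After quantile normalization, which makes the signal distributions equal, the Abcg1 difference was -1.0. Macrophages express Abcg1 and Abca1 strongly. Of 14 macrophage markers 8 were at control level on all 4 arrays, among them Ptprc, Adgre1, Lyz2 and Tyrobp, and 4 (Cd14, Cd68, Csf1r and C1qb) exceeded the controls on all of them. The summed signal of the 14 was 512 and 561 with Men1, against 435 and 610 with vector, so the groups overlap. Cd14 was the largest part of it, at 257.8 and 254.7 with Men1, against 218.3 and 241.6 with vector. The part of such cells in the Abcg1 signal was not tested.

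Abca1 hands cholesterol and phospholipid to lipid-poor apolipoproteins, an early step of particle assembly. Its brighter probe set (97198_at) read 11.4 and 26.2 with Men1, against 19.2 and 44.2 with vector, and the groups overlapped. Both Men1 signals were at control level, and the vector signals exceeded the lower controls of their own arrays. Only the 44.2 of vector replicate 2 exceeded 27.4, the highest control of all arrays. With the Men1 signals set to the controls of their own arrays, the vector mean (log2 scale) was 1.08-fold higher. This ratio leaves out the spread between arrays, so it is not a lower limit of the fold. It rests on vector replicate 2, since the 19.2 of vector replicate 1 lay below both Men1 controls. The log2 difference was -0.44 (SE 0.36, limma adjusted p = 1), with a 95% interval from -1.37 to 0.50. It was -0.05 without vector replicate 2 and -0.82 without vector replicate 1.

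The other Abca1 probe set (94354_at) read 18.4 and 3.2 with Men1, against 17 and 21.7 with vector, all of them below 27.4. Its log2 difference was -0.46 (SE 0.32, limma adjusted p = 1), and the same ratio of the vector mean over the Men1 controls was 0.827. The log2 difference was -0.88 without Men1 replicate 1 and -0.04 without Men1 replicate 2, where the brighter probe set gave -0.13 and -0.75. The probe sets thus did not follow each other within the Men1 group, where both read at control level. In RNA from a whole culture, fewer cells of a kind and less RNA per cell cannot be told apart.

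Apoe, the apolipoprotein that accepts effluxed cholesterol and is a ligand for lipoprotein receptors, was at control level on all 4 arrays in both of its probe sets. These read 8.6 and 6.9 with Men1 against 5.5 and 7.7 with vector (95356_at), and 1.9 and 2.7 against 11.9 and 2.5 (161321_i_at). They give no measurable level and no fold, whichever group is taken.

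LXR receptors bind a repeat of a hexamer spaced by 4 bases, called DR4, and such an element is textbook knowledge for Abca1 and for an Srebf1 start. Promoter windows (250 bases before to 50 after a start, RefSeq, GRCm38.p6) were at hand for 4 of the 6 members in 8 windows. Abcg1 and Scarb1 had none. The windows were searched on both strands for 2 copies of the half-site NGGTNA, in the same orientation and 4 bases apart, which leaves the more variable letters of the DR4 open. This motif was in 0.718% of 32851 promoter windows, and among the members it was found once in the Abca1 window and once in 1 of the 3 Srebf1 windows. Elements in these 2 genes were known beforehand, so the share is not a test of enrichment. The stretches that hold these matches are shown because they bear on members whose regulation by LXR is well known. Capitals mark the match, which lies on the opposite strand of the sequence printed.
Abca1, chr4:53159907-53160002, minus strand: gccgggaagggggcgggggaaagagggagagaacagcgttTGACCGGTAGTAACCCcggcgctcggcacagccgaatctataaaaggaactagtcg
Srebf1, chr11:60210598-60210693, minus strand: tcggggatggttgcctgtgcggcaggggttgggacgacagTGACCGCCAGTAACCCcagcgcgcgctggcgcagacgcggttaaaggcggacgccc

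The match lay 52 to 67 bases before the start of Abca1 and 167 to 182 bases before 1 start of Srebf1, and the latter match lies downstream of both other Srebf1 starts in the table. The 16 letters were identical at 14 places. On the arrays, as given above, Srebf1 exceeded the controls on all 4 arrays. Against 1 control level for all arrays, 27.4, the brighter Abca1 probe set exceeded it on 1 array and the other on 0. A sterol regulatory element, searched as TCACNCCAC on both strands, was in 1.24% of all windows and in 0 of the 8 windows of the members. The E-box CACGTG, which SREBPs can also bind, was in 7.15% of all windows, and occurred once in the window of Abca1 and once in that of Insig1. These letters are a description of the windows, and nothing about binding in these cells was measured.

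Other genes of the same pathways were taken from lists of genes that sense, take up, export, carry or esterify sterols. Without the members, 39 genes of these 4 lists were measured, of which 19 were higher and 20 lower with Men1, with a median log2 difference of 0.00. Over all 8251 named genes, 3879 were higher and 4372 lower, with a median of -0.01. At an unadjusted limma p under 0.05 there were 0 of the 39, against 1.88% of all probe sets. Groups did not overlap in 2 of the 39 that were higher and 6 that were lower with Men1. Over all 8251 named genes these counts were 835 and 990. Srebf2, Scap, Insig2, Nr1h2 and Soat1 had no probe set with a single symbol and are not analysed here.

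**Figure D2:**
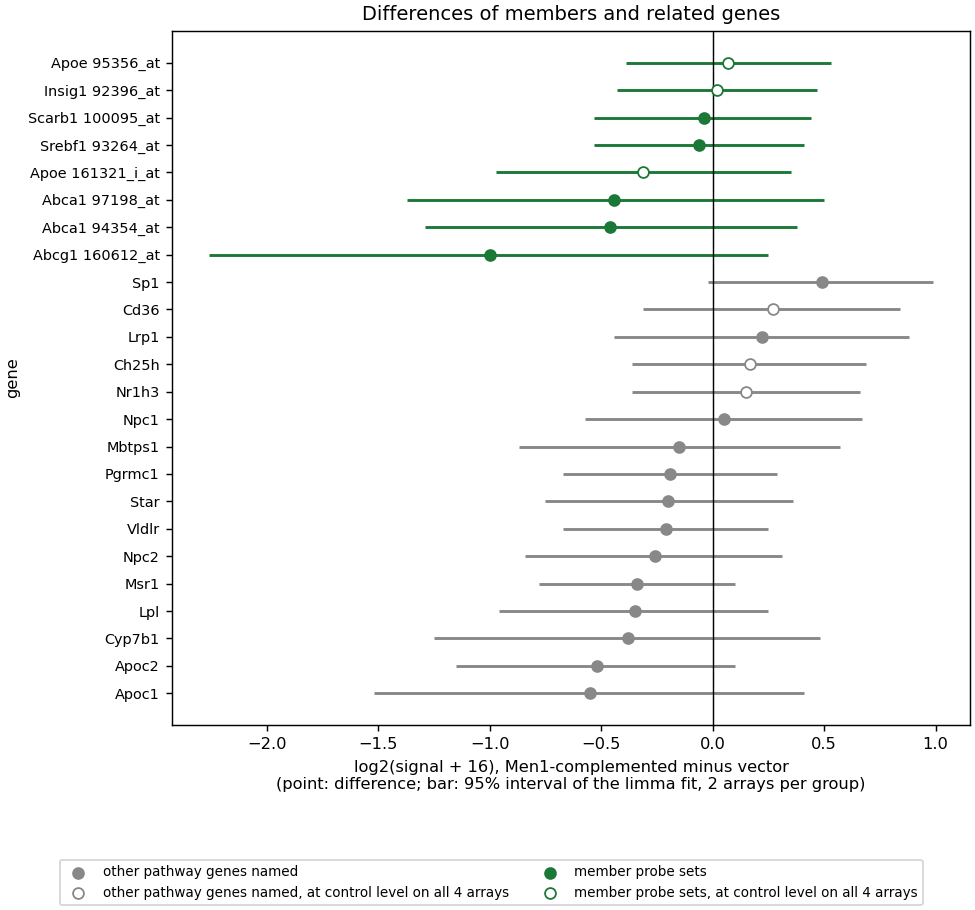
Log2 difference (Men1-complemented minus vector, horizontal axis) of each member probe set and of the other pathway genes named, with 95% intervals of the limma fit. Every interval drawn includes 0, and open circles mark probe sets at control level on all 4 arrays.

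In the list of SREBP regulators and sterol sensors 7 of 11 measured genes were higher and 4 lower (median 0.04), and 10 of the 11 exceeded the controls on all arrays. Without vector replicate 1 there were 3 higher and 8 lower, and without vector replicate 2 there were 9 and 2. Sp1, a factor that acts beside SREBPs on their promoters, read 323.3 and 396.7 with Men1, against 239.5 and 262.7 with vector. These groups did not overlap, and the log2 difference was 0.49 (SE 0.19, limma adjusted p = 1, with an unadjusted value of 0.0556). Mbtps1, the protease that makes the initial cut in SREBPs, read 335.1 and 470.6 against 369.7 and 530, and differed by -0.15 (SE 0.28). Npc1 and Npc2 carry cholesterol out of lysosomes, and differed by 0.05 (SE 0.24) and -0.26 (SE 0.22). Pgrmc1, a sterol-binding membrane protein, differed by -0.19 (SE 0.19). In Npc2 and Pgrmc1 the groups did not overlap either, and both were lower with Men1.

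Of 14 measured genes of lipoprotein uptake 7 were higher and 7 lower (median 0.01). Lrp1, a large receptor for Apoe-bearing particles, read 1062.6 and 717.5 with Men1, against 692.8 and 807 with vector, with overlapping groups and a difference of 0.22 (SE 0.25). Lpl, lipoprotein lipase, read 25.8 and 23.5 against 27.6 and 45.8, and was at control level with Men1. Vldlr, the receptor of very-low-density lipoprotein, read 26.3 and 22.2 against 29.1 and 32, with the 22.2 at control level. The scavenger receptor Cd36 was at control level on all arrays, and Msr1, another one, exceeded the controls on only 1 array. Groups did not overlap in 3 genes of this list that were lower with Men1 (Lpl, Vldlr and Msr1) and in 1 that was higher.

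The list of LXR, efflux and particle genes had 3 of 14 measured genes higher and 11 lower with Men1, but its median of -0.04 was close to that of all named genes. That split rested on single arrays: without vector replicate 2 there were 10 higher and 4 lower, and without Men1 replicate 1 there were 7 and 7. In this list 2 genes, Abcg1 and Apoc2, had groups that did not overlap, both lower, where 11.7% of all probe sets were. Apoc2, a lipase cofactor, read 4.8 and 14.2 against 20.4 and 19.6, and exceeded the controls on 1 array only. Apoc1, a small apolipoprotein encoded near Apoe, read 15.1 and 3.8 against 11.5 and 32.2, and only the 32.2 exceeded its controls. Nr1h3, the LXR of liver and macrophages, was at control level on all arrays. In the list of sterol transport, esters and oxysterols 7 of 10 were higher and 3 lower (median 0.05), which turned to 3 and 7 without vector replicate 1 and to 4 and 6 without Men1 replicate 1. Of these, Star, a mitochondrial cholesterol carrier, read 25.1 and 26.9 against 25.7 and 39.6, and was at control level with Men1. Ch25h, which makes an oxysterol, was at control level throughout. Cyp7b1, an oxysterol hydroxylase, read 8.3 and 4.9 against 5.7 and 23.8, with only the last above its controls, and its other probe set was at control level on all arrays.

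**Figure D3:**
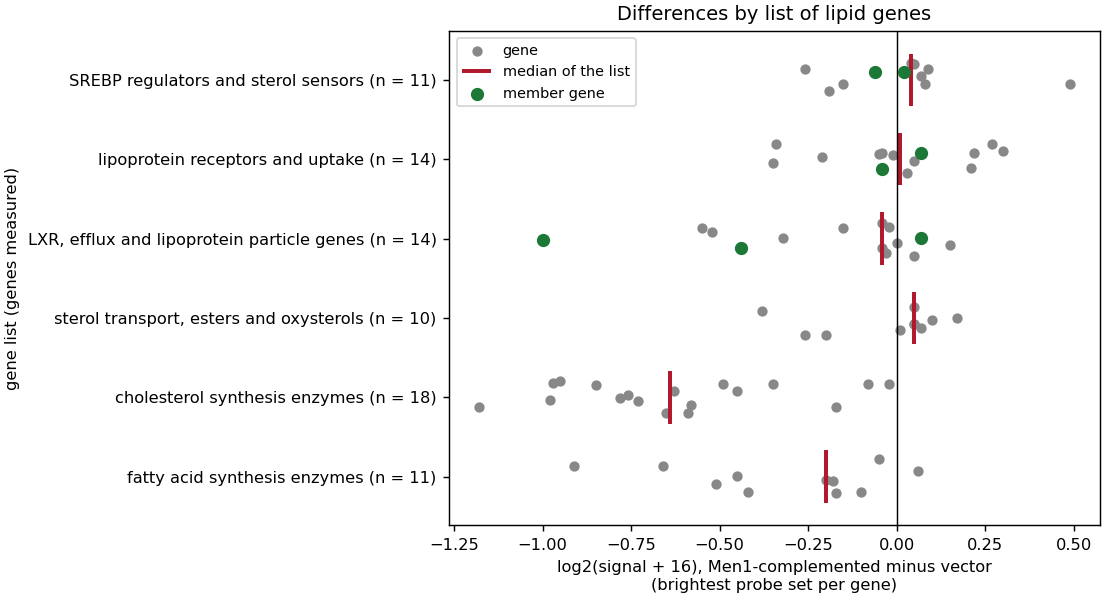
Log2 difference of each measured gene (brightest probe set) in 6 lists of lipid genes, with the members in green and the median of each list as a red line. Sensing, uptake, efflux and transport genes have medians between -0.04 and 0.05, and the cholesterol synthesis enzymes a median of -0.64.

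Genes of cholesterol and fatty acid synthesis, which SREBPs control, are set beside these lists. All 18 measured enzymes of cholesterol synthesis were lower with Men1 (median -0.64), against 4372 of all 8251 named genes. In 15 of them the groups did not overlap, where 11.7% of all probe sets were lower without overlap. At an unadjusted limma p under 0.05 there were 11, against 1.88% of all probe sets in either direction, though 0 passed after adjustment. With quantile normalization, and likewise without Men1 replicate 2 or without vector replicate 1, 17 of the 18 were lower. Idi1, which makes dimethylallyl diphosphate, read 128 and 131.1 against 302.7 and 323.1. Of 11 measured genes listed under fatty acid synthesis 10 were lower (median -0.20). Without vector replicate 2 there were 9 lower (median -0.36), and without Men1 replicate 1 there were 8 (median -0.33). Without vector replicate 1 there were also 8 (median -0.23). The desaturase Scd2 read 3249.9 and 3228.8 against 4467.4 and 4374.3. The 95% interval of Idi1, the enzyme with the largest difference, ran from -1.62 to -0.73, below the -0.53 at which those of Srebf1 and Scarb1 began. Of the other 17 enzymes, Fdps alone had an interval wholly below that value (-1.42 to -0.54). Whether the lists differ from each other was not tested, and the synthesis genes were already known to be lower when the lists were written.

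The plan also asked for the genes whose pattern over the arrays was most like that of each member. It required a signal above the controls on all 4 arrays and a range of at least 0.5 on the log2 scale. Srebf1 and Scarb1 met the former but had ranges of 0.21 and 0.22, Abcg1 had a range of 1.98 but missed the controls on 1 array, and no member met both.

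**Figure D4:**
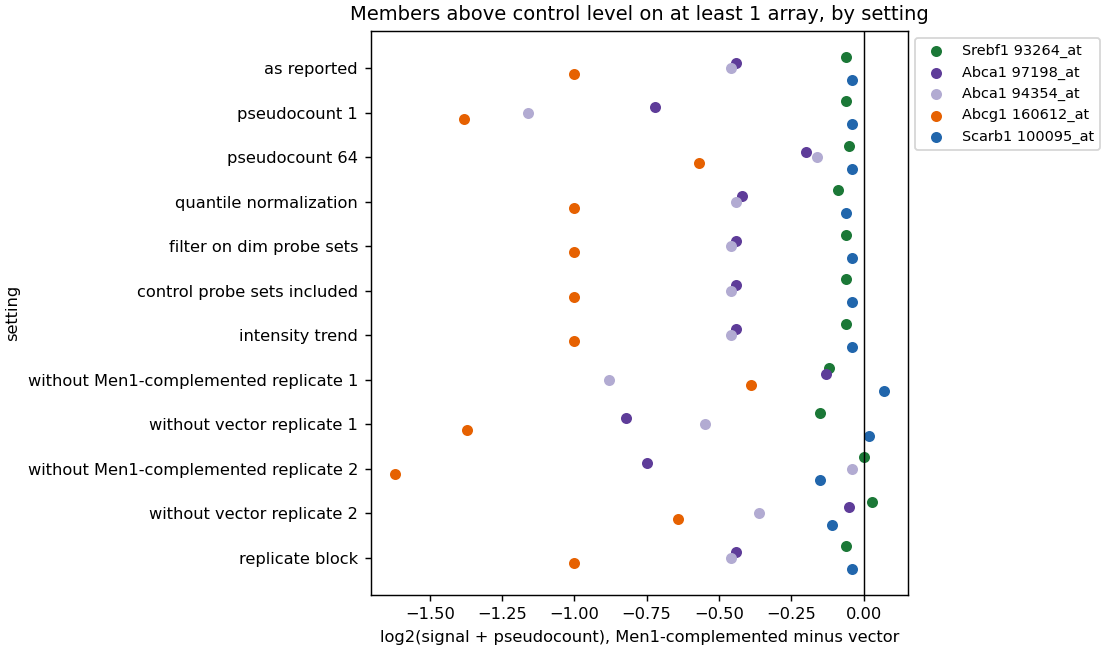
Log2 difference (Men1-complemented minus vector) of the 5 member probe sets above control level on at least 1 array, as reported and under each of 11 other settings. The values of Abcg1 and both Abca1 probe sets move with the pseudocount and with single arrays, and Srebf1 and Scarb1 stay between -0.15 and 0.07.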

How the data were processed

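The authors deposited 1 intensity per probe set, on a linear scale; the submitters' processing notes name MAS5 and Affymetrix Expression Console, and their versions and the scaling target are not given in the sources used here. On each array the trimmed mean was 150 (2% trimmed at each end), so arrays were scaled as a whole, and a change in RNA content of the cells cannot be seen. After 66 control probe sets were left out, 12422 were tested, of which 10833 had 1 symbol. Symbols were updated through gene IDs of a mouse table (GRCm38.p6) for 10817. Values were analysed as log2(signal + 16) with limma 3.58.1 (lmFit, eBayes; R 4.3.3) on all tested probe sets (2 residual and 2.87 prior degrees of freedom), two-sided, with Benjamini-Hochberg adjustment. The pseudocount understates folds of dim probe sets. The number of arrays limits the precision. The script was tested on simulated data. Members, lists and tests were chosen with earlier results of these data known. Named were all member probe sets, genes fixed by name and, of each list, genes among the 4 with the smallest p. A gene was represented by its brightest probe set. Alternatives covered the pseudocount, normalization, a filter, the variance trend, control probe sets, each array left out and a replicate block.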

Additional observations from a re-analysis of the deposited data

How the results depend on the processing

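By limma, 0 of the 8 member probe sets and 0 of all probe sets passed in each of the 11 other settings (the filter on dim probe sets left 5 members to test). At an unadjusted p under 0.05 there was 1 member without Men1-complemented replicate 1 (Abca1, 94354_at), 1 without Men1-complemented replicate 2 (Abcg1) and 1 without vector replicate 2 (Apoe, 161321_i_at, at control level); in these fits the group left with a single array borrows its spread from the other group. Over all probe sets this count was 233 as reported, and 121 to 1031 without single arrays. Without single arrays Scarb1 ran from -0.15 to 0.07, Srebf1 from -0.15 to 0.03 and Insig1 from -0.05 to 0.09, so their sign has no support. Abcg1 ran from -1.62 to -0.39, with -1.38 at a pseudocount of 1 and -0.57 at 64; as its groups do not overlap, its constant sign says nothing about stability. At a pseudocount of 1 the Abca1 probe sets gave -0.72 and -1.16. List medians ran from -0.14 to 0.10 for sterol sensors, -0.07 to 0.17 for uptake, -0.28 to 0.11 for LXR and efflux, -0.16 to 0.10 for transport, -0.72 to -0.51 for cholesterol synthesis and -0.36 to -0.18 for fatty acid synthesis. With the replicate block, Abcg1 had an SE of 0.22 and an unadjusted limma p of 0.00601 (adjusted p = 1; lowest adjusted p over settings 0.584). Arrays of the same number deviated together (r = 0.258 across 12422 probe sets, and 0.367 across the 7217 above control on all 4 arrays); the labels do not say what the 2 numbers mark. One control level for all arrays, chosen after seeing the data, left 4 member probe sets above control on at least 1 array, against 5. Signal over background limits the statements on Abca1, Insig1 and Apoe.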
